A study of Mus musculus with 10 samples.

Results

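The 10 genes described here encode AP-1 and ATF transcription factors, which were chosen by name: Fos, Fosb, Fosl1, Fosl2, Jun, Junb, Jund, Atf3, Batf and Maff. A peak of p65 binding was assigned to a member when it overlapped the gene body extended by 10 kb on each side, by at least 1 bp. All 10 members were found among the 21887 protein-coding genes on chromosomes 1 to 19, X and Y. Their windows held 32 to 65 peaks per library, out of 37551 to 80153 peaks in a list.

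AP-1 is a family of dimers of basic leucine zipper (bZIP) proteins that bind DNA as pairs, typically a Fos protein with a Jun protein. Many of these genes are immediate-early or early response genes, and in macrophages several are induced within hours of lipopolysaccharide (LPS), through mitogen-activated protein kinases (MAPK) and NF-κB. p65 (RelA) is an NF-κB subunit that carries a transactivation domain, and NF-κB and AP-1 share many target genes of the inflammatory response.

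Binding was mapped by CUT&Tag, in which a transposase tethered to an antibody cuts out the DNA around a bound protein for sequencing. The cells were RAW264.7, a mouse macrophage-like line derived from a tumour that the Abelson leukaemia virus induced, with the genotype WT in every group. Cultures received the solvent DMSO, DMSO and LPS (the LPS group) or LPS and skatole, a bacterial breakdown product of tryptophan (the LPS+Skatole group), in each case for 12 h, and each library was made from 200000 cells. Each group had 3 libraries, so 9 of the 10 samples had a peak list, and the 1 Blank sample, made without primary antibody, was not analysed here. Skatole without LPS was not among the groups. The labels name a p65 antibody and the study's methods an antibody against phosphorylated p65, so the form that was captured is not settled. The labels do not say that the libraries of a group came from separate cultures, and p-values then measure only the spread between these libraries, which may be technical.

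The lists differed in length and depth. DMSO lists held 37551 to 43450 peaks, LPS lists 55637 to 63498 and LPS+Skatole lists 78136 to 80153. The genome background, the lowest local background in a list and a measure of relative depth, was 1.09 to 1.40 fragments under DMSO, 2.23 to 2.34 under LPS and 2.26 to 2.39 under LPS+Skatole. The weakest summit in a list stood at 6.44 to 7.34 times this background in DMSO libraries and at 4.59 to 4.94 times in the other 6, so a weak peak could be listed more easily after LPS. The macrophage identity of the line was visible in the lists, since 8 of 8 macrophage marker genes had a peak in all 9 libraries, against 0 of 8 markers of other cell types. The summed peak numbers of the macrophage markers were 29 to 40, 49 to 53 and 56 to 60 for DMSO, LPS and LPS+Skatole, and those of the other markers 2 to 4, 5 to 8 and 6 to 10. List length, depth and both marker sums thus moved with the groups, and their part in the differences in peak number below was not tested, except where a value that corrects for depth is given.

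Most members were occupied in every condition. In all 9 libraries, 9 of the 10 members had a peak, compared with 54.2% of all protein-coding genes. The exception was Batf, which had 0 peaks in all 3 DMSO libraries and at least 2 in each of the other 6. Members averaged 3.7, 4.83 and 5.73 peaks in the DMSO, LPS and LPS+Skatole groups, above the 2.14, 2.99 and 3.7 of all protein-coding genes.

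The summed number of member peaks was 32, 41 and 38 with DMSO, 50, 49 and 46 with LPS, and 53, 65 and 54 with LPS+Skatole. The group means were 37 ± 4.58, 48.3 ± 2.08 and 57.3 ± 6.66 peaks (SD, n = 3 each), and no value of one group fell within the range of another. The ratio of means was 1.31 for LPS to DMSO, 1.19 for LPS+Skatole to LPS and 1.55 for LPS+Skatole to DMSO. Over all protein-coding genes the same ratios were 1.40, 1.24 and 1.73, and the lists themselves lengthened by factors of 1.45, 1.34 and 1.94. In the lists as deposited, the members gained peaks less steeply than the lists did. Per 10000 listed peaks, the member windows held 9.08 ± 0.489 peaks with DMSO, 8.22 ± 0.89 with LPS and 7.26 ± 0.913 with LPS+Skatole (SD, n = 3 each). The direction against DMSO turned in lists cut to equal length, where the ratio of member peaks was 1.14 for LPS to DMSO, 1.13 for LPS+Skatole to DMSO and 0.992 for LPS+Skatole to LPS.

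**Figure D1:**
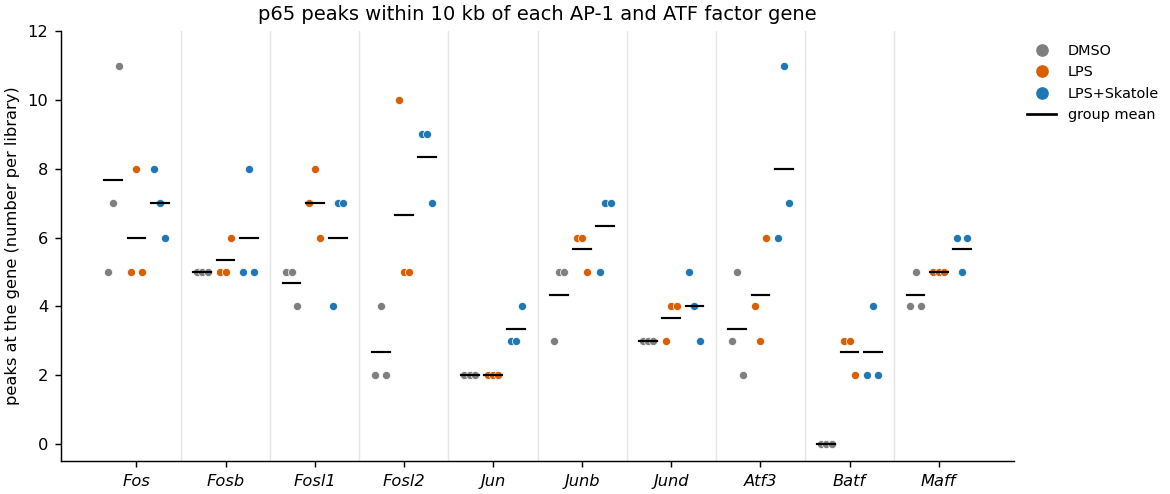
Number of p65 peaks at each gene (vertical axis) in each of the 9 libraries, with dots for libraries, colours for the 3 groups and black bars for group means. Batf has 0 peaks in the 3 DMSO libraries, Jun has 2 in each DMSO and LPS library and 3 or 4 in the LPS+Skatole libraries, and Fos overlaps between all groups.

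Peaks of the 9 lists that overlapped were merged into regions, 87 of them at the members. A library could have several peaks in the same region, so a peak number is not a number of separate sites. A peak was present in all 9 libraries in 21 of the 87 (24.1%), against 7.17% of all 170476 merged regions at protein-coding genes, while 41 (47.1%) were called in a single library, against 67.6%. The members therefore combined a small set of regions present throughout with many that appeared once. Fosl2 and Atf3 had 9 regions each that were called in 1 library. Of the 21 regions present throughout, 14 overlapped the body of the member, and 1 overlapped another gene but not the member.

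**Figure D2:**
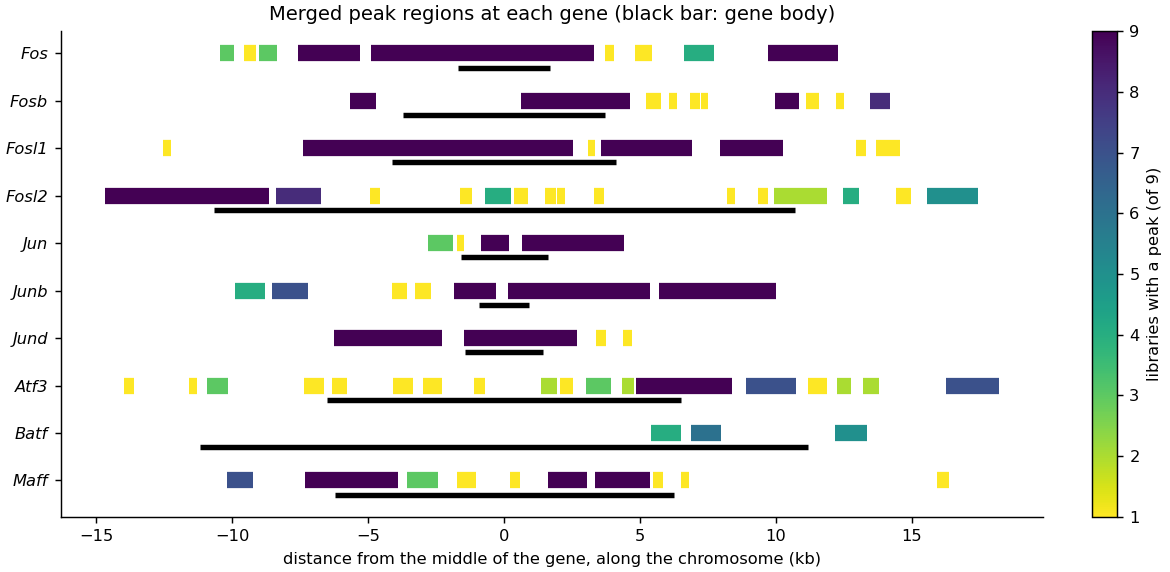
Merged peak regions along each member gene, as distance from the middle of the gene in kb along the chromosome, with black bars for the gene bodies and colour for the number of libraries with a peak (1 to 9). Regions in all 9 libraries lie at or near the gene body of every member except Batf, whose 3 regions are called in 4 to 6 libraries.

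The sequences upstream of 4 members are shown because their summits fell inside these 250 bases in 3 or more libraries. A summit is the position of highest fragment count. It lay inside in 9 libraries for Jun, 6 for Fos, 6 for Atf3 and 3 for the second start of Maff. The sequences come from RefSeq (assembly GRCm38.p6), which matched 9 of the 10 members. They are written 5′ to 3′ on the strand of the gene and end at the base before the annotated start. Capitals mark matches to 3 motifs, searched on both strands: TGANNTCA, TGACGT and the κB consensus. TGANNTCA is an 8-base pattern with 2 free bases, wider than TGACGTCA, the element that CREB and ATF factors bind. TGACGT is the core of that element. TGACGTCA matches both of the first 2.
Jun, chr4:95052223-95052472, minus strand: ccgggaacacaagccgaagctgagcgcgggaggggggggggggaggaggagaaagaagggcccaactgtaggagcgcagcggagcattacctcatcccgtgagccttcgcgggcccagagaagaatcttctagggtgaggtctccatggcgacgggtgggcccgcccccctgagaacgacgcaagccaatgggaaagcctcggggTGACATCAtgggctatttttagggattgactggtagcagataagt
Fos, chr12:85473640-85473889, plus strand: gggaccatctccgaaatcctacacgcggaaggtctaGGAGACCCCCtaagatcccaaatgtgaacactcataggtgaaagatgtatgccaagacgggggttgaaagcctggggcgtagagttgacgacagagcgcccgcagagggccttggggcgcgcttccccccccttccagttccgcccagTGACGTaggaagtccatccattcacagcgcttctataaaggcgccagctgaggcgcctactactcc
Atf3, chr1:191183334-191183583, minus strand: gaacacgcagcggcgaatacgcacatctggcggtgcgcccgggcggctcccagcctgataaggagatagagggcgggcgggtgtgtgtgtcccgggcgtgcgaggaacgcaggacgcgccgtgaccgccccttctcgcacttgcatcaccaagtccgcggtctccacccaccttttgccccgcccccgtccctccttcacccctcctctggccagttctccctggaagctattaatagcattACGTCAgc
Maff, second of 3 annotated starts, chr15:79347270-79347519, plus strand: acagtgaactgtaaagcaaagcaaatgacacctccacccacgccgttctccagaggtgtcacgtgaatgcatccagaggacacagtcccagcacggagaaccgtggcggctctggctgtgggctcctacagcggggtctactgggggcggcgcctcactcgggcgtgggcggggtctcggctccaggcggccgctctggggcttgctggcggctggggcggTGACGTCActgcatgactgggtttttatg

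Over the 11 annotated starts of the 9 matched members, TGANNTCA was found at 4 (Jun, Jund and the second and the third start of Maff), against 11.9% of 32817 starts. TGACGT was found at 4 (Fos, Atf3, Batf and the second start of Maff), against 6.46%. The κB consensus was found at 4 (Fos, Fosb, Fosl2 and the third start of Maff), against 7.25%. The 7-base AP-1 site TGANTCA had 0 matches at the 11 starts, against 6.75%, and the serum response element core, CArG, also 0, against 1.47%. These are matches of letters in a window of 250 bases and do not show that a factor binds there.

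The members are described by family, with 3 measures of a peak. The summit count is the number of fragments at the summit, worked back from the fold and −log10 p that the authors deposited. Divided by the genome background of its library it gives a level relative to depth, written below as times the background. The percentile is the rank of a peak by −log10 p within its own list, with 100 for the strongest.

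Jun encodes c-Jun, the main activating partner of Fos proteins. Its promoter region, chr4:95051281-95055049, was among the strongest peaks of every list. The recovered summit count was 138, 130 and 128 fragments with DMSO, 181, 189 and 239 with LPS, and 251, 160 and 264 with LPS+Skatole. Counts in all 6 LPS-treated libraries exceeded those in DMSO, while LPS and LPS+Skatole overlapped. Divided by the genome background, the level was 105 ± 19.1, 88.6 ± 12 and 96.1 ± 22 (SD, n = 3), and all 3 groups overlapped, so the higher counts after LPS did not exceed the difference in depth. Within their lists the peaks held percentiles of 99.3 to 99.9. All 9 summits lay 47 to 117 bp upstream of the start, inside the sequence shown above, where TGACATCA begins 45 bases upstream.

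Jun had 2 peaks in each DMSO and LPS library and 3, 3 and 4 in the LPS+Skatole libraries. No other member had more LPS+Skatole than LPS peaks without overlap (for Jun, joint exact permutation test over 3 groups, p = 0.0357, adjusted p over all genes = 0.259). The additional region, chr4:95047830-95048727, lay 4021 bp beyond the start and downstream of the gene body, with a peak in 0 of 6 DMSO and LPS libraries. Its summits held 17, 20 and 13 fragments, against 11 in the weakest summit of these lists, and its percentiles were 33.5, 46.3 and 14.6. The region thus ranked in the weaker part of each list, and its peak in replicate 3 lay nearest the threshold at which the lists end. A second region in all 9 libraries, chr4:95049779-95050815, inside the gene body, held 21 to 42 fragments and overlapped between all groups when divided by the background.

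Junb encodes a Jun protein that activates less strongly than c-Jun and can replace it in AP-1 dimers. Peak numbers at Junb were 3, 5 and 5 in DMSO, 6, 6 and 5 in LPS, and 5, 7 and 7 in LPS+Skatole libraries. The region upstream of and across its start, chr8:84977974-84983198, had summit counts of 107, 158 and 134 in DMSO, 237, 161 and 165 in LPS, and 253, 269 and 271 in LPS+Skatole libraries. Each LPS+Skatole library was above each LPS library, also after division by the background, with levels of 103 ± 8.41, 82 ± 18.5 and 113 ± 5.44 (SD, n = 3). The LPS+Skatole to LPS ratio was 1.38, and the DMSO level overlapped that of LPS. By percentile LPS+Skatole overlapped LPS, at 96.6, 97.6 and 97.1 against 96.8, 89.9 and 92.1. The local background of this region was high, at 17.2 to 38.5 fragments, and the authors' fold was only 4.58 to 7.64. The summit lay 1280 to 1284 bp upstream of the start in 8 of 9 libraries and at 3922 bp upstream in LPS replicate 3. The count of 165 in LPS replicate 3 thus refers to another position. A further upstream region, chr8:84983511-84987809, had levels of 63.3 ± 14.8, 71.7 ± 3.12 and 69.9 ± 4.06 times the background, and the groups overlapped. The region over the gene end, chr8:84975971-84977509, stood at 93.6 ± 25.2, 69.8 ± 7.18 and 57.1 ± 16.4 times the background, again with overlap.

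Jund encodes JunD, the Jun protein that resting cells express most steadily. Its region over the gene body, chr8:70697710-70701855, which also overlaps the neighbouring gene Iqcn, held 121, 149 and 120 fragments in DMSO, 209, 263 and 236 in LPS, and 171, 174 and 226 in LPS+Skatole libraries. By percentile it was highest in LPS, at 99.7, 99.9 and 99.7, against 99.3, 99.3 and 98.6 in DMSO and 98.9, 99.1 and 99.6 in LPS+Skatole libraries. This made Jund the only member whose top peak ranked lower in LPS+Skatole than in LPS without overlap, although the means differed by only −0.583 percentile points. Divided by the background the region stood at 102 ± 12, 103 ± 13.7 and 81.5 ± 11.3 (SD, n = 3), and LPS+Skatole overlapped LPS. The summit of this region lay 767 to 1031 bp from the start in DMSO, 1128 to 1168 bp in LPS and 933 to 992 bp in LPS+Skatole libraries, so that the LPS positions overlapped neither of the other groups. The second region, chr8:70692922-70696891, had its summit between 1089 and 3955 bp upstream of the start, the widest spread of the 21 regions at 2866 bp. Peak numbers were 3, 3 and 3, then 3, 4 and 4, then 5, 4 and 3.

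**Figure D3:**
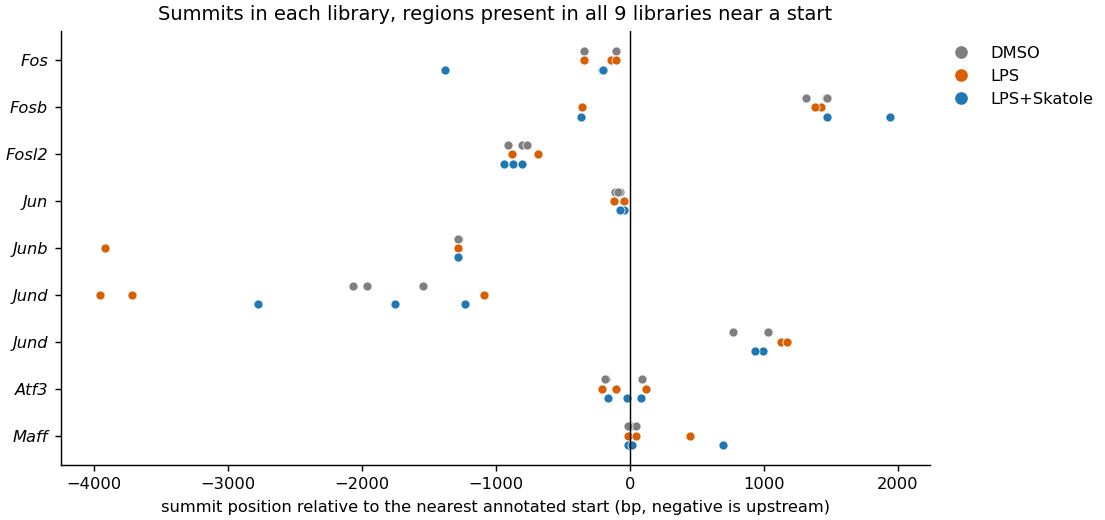
Summit position in each library relative to the nearest annotated start, in bp with upstream negative, for the 9 regions present in all libraries whose median summit lay within 2 kb of a start, coloured by group. The 9 Jun summits lie within 70 bp, 8 of 9 Junb summits lie on 1 spot 1284 bp upstream, and the LPS summits in the Jund body lie farther from the start than those of the other groups.

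Fos encodes c-Fos, the prototype immediate-early factor. It had 5, 7 and 11 peaks in DMSO, 5, 8 and 5 in LPS, and 8, 7 and 6 in LPS+Skatole libraries, which overlapped in every pair of groups. Of the Fos peaks, 2, 4 and 6 in DMSO, 2, 2 and 2 in LPS, and 2, 3 and 2 in LPS+Skatole libraries lay in a single merged region. That region, over the promoter and body of Fos, chr12:85470695-85478873, held 57, 66 and 74 fragments in DMSO, 100, 71 and 98 in LPS, and 93, 85 and 117 in LPS+Skatole libraries. Relative to the background the order turned, with 51.3 ± 3.73 under DMSO, 39.1 ± 6.3 under LPS and 42.1 ± 5.98 under LPS+Skatole (SD, n = 3), and LPS lay below DMSO without overlap. In 6 libraries the summit lay in the 250 bases shown above, which hold TGACGT beginning 66 bases and a κB match beginning 214 bases upstream of the start.

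A region upstream of Fos, chr12:85467999-85470292, with its median summit 4999 bp before the start, showed the lowest LPS to DMSO ratio of the 21 regions relative to the background. Its counts were 49, 62 and 41 in DMSO, 37, 40 and 59 in LPS, and 69, 41 and 73 in LPS+Skatole libraries. Relative to the background it stood at 39.8 ± 8.37, 19.8 ± 4.78 and 26 ± 6.86 (SD, n = 3), a ratio of 0.496 for LPS to DMSO (joint exact permutation test, p = 0.025, adjusted p over all regions = 0.199). Its raw count ratio was 0.895, and by percentile LPS and DMSO overlapped. A region downstream of Fos, chr12:85485272-85487877, behaved otherwise. Its percentiles were 55, 76.1 and 79.2 in DMSO, 86.6, 88.9 and 82.3 in LPS, and 89.5, 86.4 and 90.3 in LPS+Skatole libraries, so LPS ranked above DMSO without overlap. Its summit fell within 10 bp of 12331 bp from the start in 7 of 9 libraries, the exceptions being DMSO replicates 1 and 2.

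Fosb encodes FosB, which like c-Fos needs a Jun partner to bind DNA. Peak numbers were 5, 5 and 5 in DMSO, 5, 5 and 6 in LPS, and 5, 8 and 5 in LPS+Skatole libraries. The region over the body, chr7:19307021-19311045, held 70, 84 and 66 fragments in DMSO, 130, 84 and 119 in LPS, and 148, 119 and 134 in LPS+Skatole libraries, with overlapping groups after division by the background (57.6 ± 8.12, 48.4 ± 9.68 and 57.3 ± 5.43, SD, n = 3). The distal region 6549 bp upstream of the start, chr7:19316375-19317237, differed more. It had 37, 57 and 54 fragments in DMSO, 88, 53 and 47 in LPS, and 120, 109 and 105 in LPS+Skatole libraries. LPS+Skatole lay above LPS in every library, at 47.8 ± 3.74 against 27.4 ± 9.67 times the background, with 38.2 ± 3.67 in DMSO. The ratio of 1.74 was the highest LPS+Skatole to LPS ratio among the 21 regions (joint exact permutation test, p = 0.0393, adjusted p over all regions = 0.226). Among the 21 regions it was also the only one that ranked higher in LPS+Skatole than in LPS without overlap. Its percentiles were 90.3, 88.5 and 86.2 against 83.4, 57 and 40.9. The third region, chr7:19300741-19301689, downstream of the gene, stood at 26.7 ± 2.31 times the background in DMSO and 21.1 ± 1.09 in LPS without overlap, while LPS+Skatole spread from 12 to 40.5.

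Fosl1 encodes Fra-1 and Fosl2 encodes Fra-2, Fos proteins without the strong transactivation domain of c-Fos. Fosl1 had 5, 5 and 4 peaks in DMSO, 7, 8 and 6 in LPS, and 4, 7 and 7 in LPS+Skatole libraries, so LPS exceeded DMSO without overlap and LPS+Skatole overlapped both. Its 3 regions in all 9 libraries, chr19:5444416-5454354, chr19:5455380-5458741 and chr19:5459742-5462087, lie in a dense stretch, the first 2 also over Ccdc85b and the last over Fibp and not over Fosl1. The highest ranked of these, chr19:5455380-5458741, had 47, 73 and 71 fragments in DMSO, 103, 90 and 72 in LPS, and 104, 78 and 84 in LPS+Skatole libraries. Its levels of 49.2 ± 5.25, 38.7 ± 7.25 and 38 ± 5.58 times the background overlapped (SD, n = 3). Its summit positions in LPS and DMSO did not overlap, within a range of 319 bp over the 9 libraries. Its percentiles overlapped between all groups, at 91.6 to 95.6 in DMSO, 92.2 to 97.1 in LPS and 92.7 to 96.2 in LPS+Skatole libraries. The first region, chr19:5444416-5454354, held 39, 38 and 36 fragments in DMSO, 53, 55 and 95 in LPS, and 93, 90 and 123 in LPS+Skatole libraries. Relative to the background it stood at 29.8 ± 5.19, 29.4 ± 9.63 and 43.6 ± 6.69 (SD, n = 3), and LPS+Skatole overlapped LPS, through LPS replicate 3, but not DMSO. It was the highest ranked peak at Fosl1 in LPS replicate 3 and in LPS+Skatole replicates 2 and 3, at percentiles of 96.7, 95.8 and 98.2. This region alone held 3, 2 and 2 peaks in DMSO, 4, 4 and 4 in LPS, and 1, 3 and 4 in LPS+Skatole libraries. Part of the higher peak number at Fosl1 in LPS thus came from more peaks within a region present in all 9 libraries.

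Fosl2 had 2, 4 and 2 peaks in DMSO, 10, 5 and 5 in LPS, and 9, 9 and 7 in LPS+Skatole libraries. Both LPS-treated groups exceeded DMSO without overlap (joint exact permutation test, p = 0.0464). Its only region in all 9 libraries, chr5:32132486-32138516, across the start, had 38, 58 and 70 fragments in DMSO, 104, 89 and 102 in LPS, and 109, 123 and 113 in LPS+Skatole libraries. Its percentile was 86.6, 91.7 and 95 in DMSO and 95.9 to 97.7 in the other 6 libraries, above DMSO without overlap. Relative to the background, LPS (42.9 ± 2.71) overlapped DMSO (42.6 ± 8.38), and LPS+Skatole (49.4 ± 4.35) exceeded LPS without overlap. The next region within the gene, chr5:32138770-32140410, was called in 8 libraries, all but DMSO replicate 3. It had 14 and 21 fragments in DMSO, 43, 41 and 28 in LPS, and 50, 59 and 60 in LPS+Skatole libraries. Its percentiles of 83.6, 83.2 and 68.2 in LPS and 71.3, 13.2 and 12.2 in LPS+Skatole libraries ran the other way from the counts, beside a local background of 2.23 to 2.34 fragments in LPS and 7.12 to 29.9 in LPS+Skatole libraries. A weaker region inside the gene, chr5:32146459-32147418, was gained in LPS against DMSO with 18, 19 and 15 fragments and was called in 1 LPS+Skatole library. Relative to the background these 3 LPS peaks stood at 7.84, 8.54 and 6.4, close to the 6.44 to 7.34 of the weakest summits in the DMSO lists. A pair of regions beyond the end of the gene were gained in LPS+Skatole against DMSO, chr5:32159618-32160211 with 13, 15 and 34 fragments and chr5:32162704-32164584 with 46, 38 and 43. Neither was absent from the LPS group, since the first had a peak of 18 fragments in LPS replicate 2 and the latter peaks of 31 and 27 fragments in LPS replicates 1 and 3.

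Atf3 encodes a bZIP factor induced by stress and Toll-like receptor signals, known as a repressor of inflammatory genes in macrophages. It had 3, 5 and 2 peaks in DMSO, 4, 3 and 6 in LPS, and 6, 11 and 7 in LPS+Skatole libraries. LPS+Skatole exceeded DMSO without overlap and shared the value 6 with LPS (joint exact permutation test, p = 0.05). The promoter region, chr1:191181659-191185194, held 28, 67 and 59 fragments in DMSO, 85, 86 and 90 in LPS, and 108, 104 and 122 in LPS+Skatole libraries. LPS+Skatole was above LPS in each library also after division by the background (47.7 ± 2.81 against 38 ± 0.859, SD, n = 3, ratio 1.25), and DMSO at 39 ± 11.7 overlapped both. The 9 summits lay between 211 bp upstream and 117 bp downstream of the start, 6 of these in the sequence shown above. That sequence carries ACGTCA, the reverse complement of TGACGT, beginning 8 bases before the start. A region beyond the end of the gene, chr1:191165883-191166652, had a peak only in the 3 LPS+Skatole libraries, with 13, 42 and 29 fragments at percentiles of 14.6, 81 and 67.2.

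Batf encodes a small AP-1 factor without a transactivation domain of its own, which pairs with Jun proteins and cooperates with IRF factors. It was the only member whose presence of binding separated the groups, with 0, 0 and 0 peaks in DMSO, 3, 3 and 2 in LPS, and 2, 4 and 2 in LPS+Skatole libraries (joint exact permutation test, p = 0.0357, adjusted p over all genes = 0.259). A peak in all 6 LPS-treated libraries and in no DMSO library was found at 132 genes in all, 0.603% of the protein-coding genes. None of the Batf regions lay at the promoter. The region chr12:85704779-85705863, inside the gene with summits 18572 to 18890 bp beyond the start, was present in all 6 LPS-treated libraries and in no DMSO library. Its summits held 112, 159 and 137 fragments in LPS and 103, 117 and 121 in LPS+Skatole libraries, but the local background was also high, between 40 and 68.1 fragments. The authors' fold was therefore only 2.05 to 2.75 with LPS and 1.77 to 2.48 with LPS+Skatole, and the percentiles ranged from 26.9 to 73.2. The adjoining region chr12:85703292-85704410 was gained in LPS with 47, 54 and 50 fragments at folds of 4.7 to 5.57. It was also called in LPS+Skatole replicate 2, with 68 fragments, and in neither of the other LPS+Skatole libraries. Its 4 summits lay within 26 bp. The third region, chr12:85710083-85711266, just beyond the gene end, was called in LPS replicates 1 and 2 with 29 and 35 fragments and in all LPS+Skatole libraries with 35, 28 and 38. The best percentile at Batf was 66.8, 74.1 and 67.4 in LPS and 75, 79.9 and 77.6 in LPS+Skatole libraries, below that of any other member in every LPS-treated library.

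Maff encodes MafF, a small Maf protein that lacks a transactivation domain and binds DNA with partners of the CNC family. Peak numbers were 4, 5 and 4 in DMSO, 5, 5 and 5 in LPS, and 6, 5 and 6 in LPS+Skatole libraries, overlapping in every pair of groups. Its promoter region, chr15:79345505-79348960, spans the 3 annotated starts and showed the highest LPS to DMSO ratio of the 21 regions relative to the background. It held 29, 37 and 48 fragments in DMSO, 86, 83 and 110 in LPS, and 130, 95 and 159 in LPS+Skatole libraries. Every LPS-treated library exceeded every DMSO library. The level relative to the background was 29.5 ± 5.07 under DMSO, 40.6 ± 5.51 under LPS and 54.7 ± 12.2 under LPS+Skatole (SD, n = 3), with LPS 1.38 times DMSO without overlap and LPS+Skatole overlapping LPS (joint exact permutation test, p = 0.0393, adjusted p over all regions = 0.226). It was the only one of the 21 regions where LPS lay above DMSO without overlap by that measure. By the rank of its top peak Maff had percentiles of 93.7, 90.1 and 90.6 in DMSO, 96.2, 96.2 and 97.9 in LPS, and 98.5, 96.4 and 99.2 in LPS+Skatole libraries (joint exact permutation test, p = 0.00714, adjusted p over all genes = 0.127).

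The other Maff regions in all 9 libraries were not higher in LPS than in DMSO relative to the background. An intragenic region 6351 bp beyond the start, chr15:79354459-79355908, had nearly equal counts of 52, 49 and 47 in DMSO and 51, 48 and 58 in LPS libraries. Relative to the background it stood at 39.1 ± 7.46 in DMSO and 22.8 ± 1.68 in LPS without overlap, a ratio of 0.584, and at 28.5 ± 6.09 in LPS+Skatole libraries. In DMSO replicate 1 this region, at percentile 93.7, was the highest ranked at the gene, and in the 6 LPS-treated libraries the promoter region was. The neighbouring region chr15:79356205-79358206 stood at 32.1 ± 2.94, 22.7 ± 9.39 and 19.3 ± 3.17, with LPS overlapping DMSO and each LPS+Skatole library below each DMSO library.

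**Figure D4:**
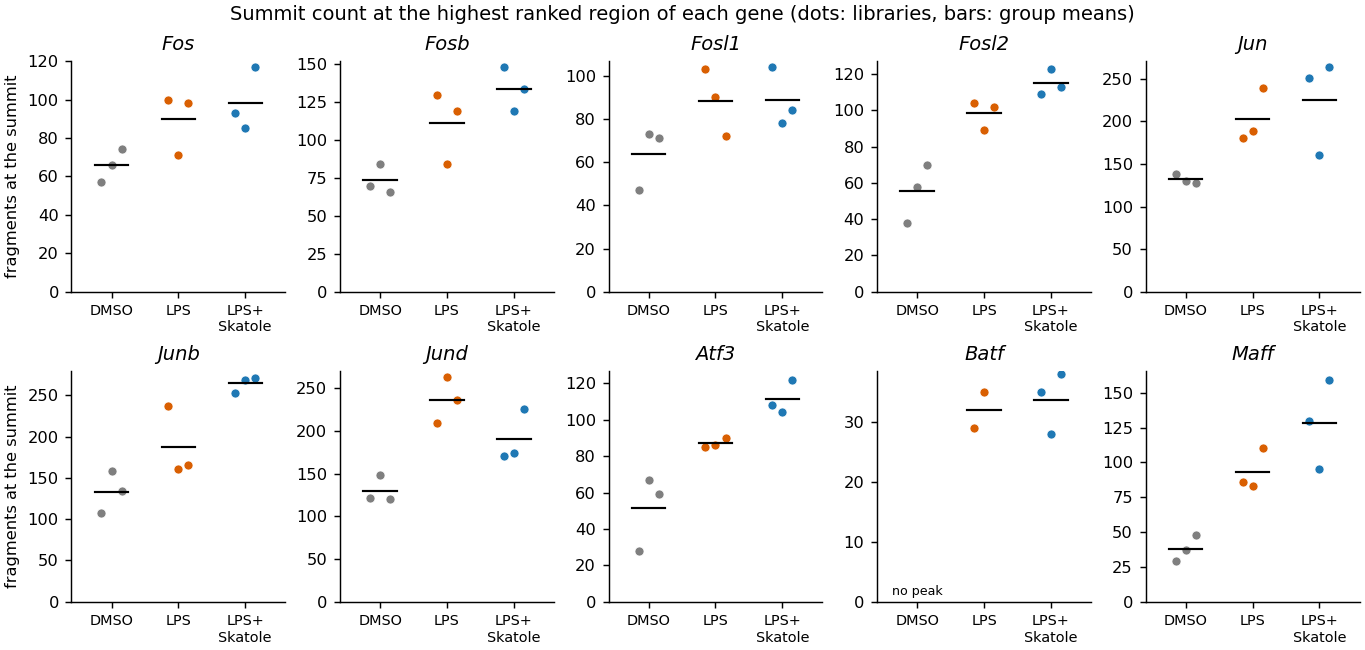
Recovered number of fragments at the summit (vertical axis, from 0) in the region with the highest mean percentile at each gene, with dots for libraries, colours for groups and bars for the mean of the libraries with a peak. Counts are not corrected for depth, which by the genome background differed 1.78 times between LPS and DMSO libraries. Maff runs from 29 to 48 in DMSO and from 83 to 159 after LPS, and Batf has no peak in DMSO.

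Peak numbers were then compared between groups over all members. An exact permutation test of 3 libraries against 3 cannot give a p below 0.1, so a difference was called when the values of 2 groups did not overlap, and the share of all genes called the same way stands beside each count. LPS had more peaks than DMSO at 3 members (Fosl1, Fosl2 and Batf), while 10.9% of all genes were called so, and fewer at 0, against 0.324%. LPS+Skatole had more peaks than LPS at 1 member (Jun), against 8.11% of all genes, and fewer at 0, against 0.69%. LPS+Skatole had more peaks than DMSO at 4 members (Fosl2, Jun, Atf3 and Batf), against 22.7%, and fewer at 0, against 0.155%. In lists of equal length, and with a summit of at least 8 times the background, only Batf remained called for LPS against DMSO and only Fosl2 and Batf for LPS+Skatole against DMSO. Jun was not called against LPS in either setting, and Fosl2 was in the latter. The joint exact permutation test over the 280 divisions of the libraries gave p below 0.05 for 3 members (Jun, Batf and Fosl2), and 15.8% of the 19505 genes with any peak reached the same. After Benjamini-Hochberg adjustment over these genes 0 passed 0.05, and the smallest adjusted p was 0.259, for members as for all genes.

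For regions, a gain was a peak in all 3 libraries of one group and 0 of the other, and a loss the reverse. Against DMSO, LPS gained 3 of the 87 member regions, 1 at Fosl2 and 2 at Batf, where 1% of all regions at genes were gained, and lost 0, where 0.0458% were lost. LPS+Skatole gained 2 regions against LPS, at Jun and Atf3, where 0.507% of all regions were gained, and lost 0, where 0.129% were lost. LPS+Skatole gained 6 regions against DMSO, 2 at Fosl2, 1 at Jun, 1 at Atf3 and 2 at Batf, where 1.82% were gained, and lost 0, where 0.0434% were lost. No member region was thus lost after skatole by this rule. Both gains against LPS, at Jun and Atf3, were absent with lists of equal length, with a −log10 q of at least 5 and with a summit of at least 8 times the background.

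The LPS libraries enter both the comparison with DMSO and that with LPS+Skatole, so the 2 comparisons are not independent. The rank of the best peak at each gene was compared for the 9 members with a peak in all libraries, beside the 11870 such genes. LPS ranked above DMSO at 4 members (Fosl1, Fosl2, Jund and Maff), against 20% of genes, and below at 0, against 2.4%. LPS+Skatole ranked above LPS at 0 members, against 14.6% of genes, and below at 1 (Jund), against 3.18%. LPS+Skatole ranked above DMSO at 4 (Fosb, Fosl1, Fosl2 and Maff), against 31.6%, and below at 0, against 1.57%. The median member differed by 1.99 percentile points between LPS and DMSO, by 0.471 between LPS+Skatole and LPS and by 2.62 between LPS+Skatole and DMSO, compared with 2.22, 1.01 and 3.73 over all these genes. A percentile depends on the length of its list, and in lists of equal length the member medians were 0.817, −0.418 and −0.0564 points. The joint exact permutation test gave p below 0.05 for Maff and Fosl2 (p = 0.0179), as for 19.9% of genes, and 0 genes passed after adjustment over all genes.

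**Figure D5:**
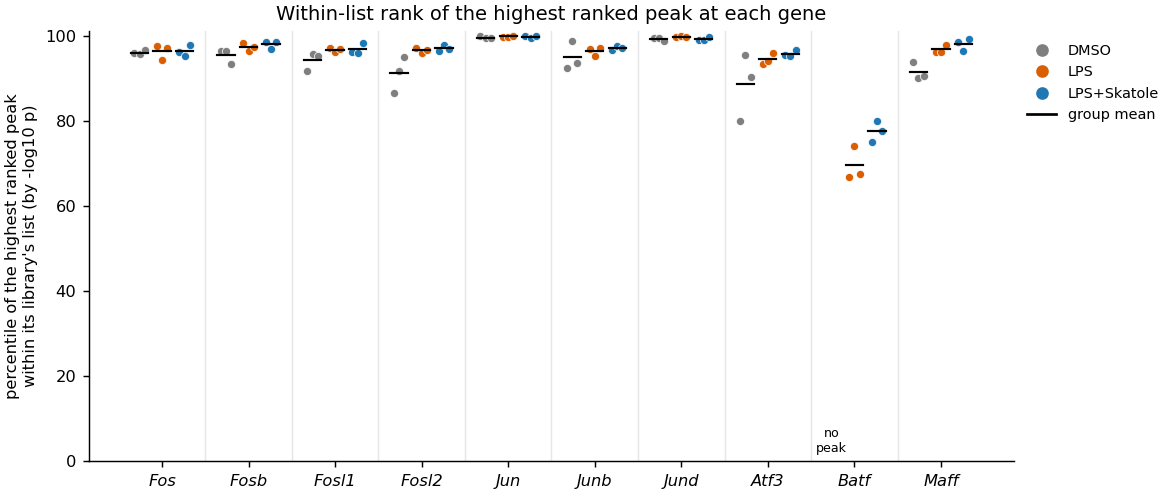
Percentile of the highest ranked peak at each gene within the list of its library by −log10 p (vertical axis, 100 is the strongest peak), with dots for libraries, colours for groups and bars for group means. Jun and Jund stand at 98.6 or higher in all libraries, Maff and Fosl2 are higher in the 6 LPS-treated libraries than in DMSO, and Batf has no peak in DMSO.

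At the 21 regions present in all libraries, the outcome of LPS against DMSO depended on the measure. By rank within the list, 4 regions were higher in LPS without overlap (downstream of Fos, at Fosl2, in the Jund body and at the Maff promoter), against 19.2% of the 12224 such regions at genes, and 0 were lower, against 2.5%. By summit count over genome background, 1 was higher (the Maff promoter), against 3.58%, and 4 were lower (upstream of Fos, the Fos promoter, downstream of Fosb and inside Maff), against 23.8%. The median ratio of LPS to DMSO at these 21 regions was 1.41 for raw counts and 0.794 for counts over background, compared with 1.5 and 0.839 at all such regions. The median ratio thus lay above 1 for raw counts and below 1 for counts over background, at the member regions as at all such regions. Why the calls by rank and by count over background differed was not tested.

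Between LPS+Skatole and LPS libraries the genome background was similar, while the lists differed 1.34 times in length, and the calls again depended on the measure. By count over background, 4 of the 21 regions were higher in LPS+Skatole (upstream of Fosb, at Fosl2, upstream of Junb and at the Atf3 promoter), against 21.1% of all such regions. By this measure 0 were lower, against 1.88%. By rank, 1 was higher (upstream of Fosb), against 13.3%, and 1 was lower (in the Jund body), against 3.14%. The median ratio was 1.18 at the member regions and 1.18 at all regions, with a range of 0.789 to 1.74 over the 21. The joint exact permutation test of the counts over background gave p below 0.05 at 4 of the 21 regions (upstream of Fos, upstream of Fosb, and the promoter and intragenic regions of Maff), as at 19.5% of all such regions, and 0 passed adjustment over all regions.

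Summit positions did not overlap between LPS and DMSO at 2 regions (chr19:5455380-5458741 at Fosl1 and the Jund body), against 9.34% of all such regions. Between LPS+Skatole and LPS they did not overlap at 2 (chr4:95049779-95050815 inside Jun and the Jund body), against 9.28%. Over the 9 libraries the summit of a member region ranged over 70 to 2866 bp with a median of 401 bp, compared with a median of 464 bp at all regions. The narrowest was the Jun promoter. In 2 of the 21 regions, upstream of Junb and downstream of Fos, at least 7 summits fell within 10 bp of the median, which held for 3.21% of all such regions.

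Other genes of the pathway were counted in the same way. Of 17 other bZIP genes, 13 had a peak in all 9 libraries, with Batf2, Batf3 and Maf among the exceptions. More peaks without overlap were found at 2 of the 17 in LPS against DMSO (Atf1 and Atf6b) and at 2 in LPS+Skatole against LPS (Creb5 and Batf2), beside 10.9% and 8.11% of all genes, with fewer at 0 in both. LPS+Skatole had more peaks than DMSO at 6 of the 17, beside 22.7% of all genes, and fewer at 0. These counts carry no test, and the values of single genes are a description. Creb5, a CREB family activator, had 3, 6 and 9 peaks in DMSO, 7, 11 and 9 in LPS, and 17, 20 and 16 in LPS+Skatole libraries. Batf2 had 2, 2 and 0, then 2, 2 and 3, then 4, 4 and 4. Maf was nearly unoccupied, with 1 peak in 1 LPS+Skatole library.

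Of 17 genes of the MAPK cascades and their nuclear targets, which feed into AP-1, 16 had a peak in all 9 libraries, with Map2k6 as the exception. More peaks were found at 2 in LPS against DMSO, Map2k2 among them, and at 2 in LPS+Skatole against LPS, beside the same 10.9% and 8.11% of all genes, and fewer at 0 in both. LPS+Skatole had more peaks than DMSO at 4 of the 17, beside 22.7%, and fewer at 0. Map2k1, which encodes the ERK kinase MEK1, had 6, 8 and 12 peaks in DMSO, 12, 13 and 12 in LPS, and 17, 15 and 15 in LPS+Skatole libraries. Map2k3, which encodes a p38 kinase, had 3, 5 and 3, then 4, 3 and 3, then 6, 6 and 9. The median over genes of the mean peak number was 3.83, 5.17 and 6 in the 3 groups for the members, 4, 6 and 6.33 for the other bZIP genes and 3.33, 5 and 6.33 for the MAPK genes, compared with 1.33, 2 and 2.67 for all protein-coding genes.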

How the data were processed

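CUT&Tag peak lists of 9 libraries (3 per group) were analysed. The authors deposited narrowPeak lists, 1 per library, and the submitters' processing notes name fastp 0.20.1, HISAT2 2.1.0, StringTie 2.0 and the build mm10, without roles. The peak caller and the use of a control are not given in the sources used here. In the deposited files the score equalled 10 times the −log10 p without its decimals. Also from the authors are the fold (a ratio, the summit pileup over the local background), the −log10 p, the −log10 q and the summit offset, used within a list to rank or filter peaks. Every list ended just above a −log10 p of 5.

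Summit counts were recovered from the deposited fold and −log10 p, taking the fold as (count + 1)/(background + 1) and p as an upper Poisson tail. They came out whole (tolerance 0.01) for all but 1 peak in each list. A position near a peak that falls under the threshold counts as absent. The lists give no total reads, so depth was read from the genome background.

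Genes were matched by symbol to a RefSeq table (GRCm38.p6). A peak lay within 250 bp of 30.4% of 32812 gene starts on average, and of 5.8% and 5.54% of positions shifted by 10000 bp. Peaks outside chromosomes 1 to 19, X and Y (424) were left out. Regions were made by merging overlapping peaks. Exact permutation tests, with Benjamini-Hochberg adjustment over all genes or regions, were computed with numpy 2.4.6 (Python 3.11.15), and Poisson tails with scipy 1.17.1. No test was run on sums over the members. The members, gene lists and rules were chosen with earlier results of these data known. Named were all members, their regions with the highest mean percentile, in all 9 libraries or gained or lost in any pair, and up to 4 genes of the other lists that differed without overlap between LPS+Skatole and LPS. The genes with more peaks in LPS than DMSO in those lists, the genes of those lists without a peak in some library, Maf and the Fosl2 region called in 8 libraries were named after their values were seen. Alternatives were lists of equal length, a −log10 q of at least 5, a summit of at least 8 times the background, the summit inside the window, windows of 3 and 25 kb, other region and rank rules, a replicate block and each library left out. Some genes of the bZIP and MAPK lists were counted with their list, and their own results are not reported here.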

Additional observations from a re-analysis of the deposited data

How the results depend on the processing

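The peak lists were the only record of depth used here, and list length rose with the groups. With lists of equal length the ratio of member peaks was 0.992 for LPS+Skatole to LPS and 1.13 for LPS+Skatole to DMSO, and per 10000 peaks the ratio to DMSO turned to 1.14 for LPS and 1.13 for LPS+Skatole. The same setting left 1 member with more peaks in LPS than DMSO, 2 in LPS+Skatole than DMSO and 0 in LPS+Skatole than LPS. It gave 3 regions gained in LPS+Skatole against DMSO and 0 against LPS, and median rank differences of 0.817 for LPS and −0.0564 for LPS+Skatole against DMSO. With a summit of at least 8 times the background, the counts of members with more peaks than DMSO were 1 for LPS and 2 for LPS+Skatole, the regions gained by LPS+Skatole 3 against DMSO and 0 against LPS, and the ratios to DMSO per 10000 peaks 1.07 and 0.966. Jun did not keep its call in either setting, nor did Fosl1 or Fosl2 for LPS against DMSO, or Atf3 for LPS+Skatole against DMSO. The Atf3 call was also lost with a −log10 q of at least 5, with the summit inside the window and with windows of 3 kb, and the Fosl1 call with a −log10 q of at least 5. At that q the mean differences stayed at 4.67 peaks for Atf3 and 2.33 for Fosl1, and the groups overlapped. For Atf3 the difference was 4 with the summit inside the window and 2.33 with windows of 3 kb. At 8 times the background it was 3.33 for Atf3, 2 for Fosl1 and 2 for Fosl2, against 4.67, 2.33 and 4 in the main setting.

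A −log10 q of at least 5 gave 5 regions gained in LPS against DMSO and 0 in LPS+Skatole against LPS. Windows of 25 kb gave 6 members with more peaks in LPS than DMSO, 2 in LPS+Skatole than LPS, 6 regions gained in LPS against DMSO and 1 lost in LPS+Skatole against LPS. Windows of 3 kb, or regions built from summits within 250 bp, left 1 region gained against LPS. When 2 libraries more sufficed, 10, 6 and 12 regions were gained (LPS against DMSO, LPS+Skatole against LPS, LPS+Skatole against DMSO) and 2 were lost in LPS+Skatole against LPS. By summit count over background instead of rank, an alternative added after seeing the data, 1 region was higher and 4 were lower in LPS than DMSO, and 4 were higher and 0 lower in LPS+Skatole than LPS. Among genes with as many peaks as the members, 0.236% had fewer peaks in LPS+Skatole than DMSO.

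Leaving out 1 library makes the rule of no overlap easier to meet by construction. Members with more peaks numbered 3 to 4 in LPS than DMSO, 4 to 6 in LPS+Skatole than DMSO and 1 to 3 in LPS+Skatole than LPS, above 1 without any library but LPS+Skatole replicate 3. Regions gained in LPS against DMSO numbered 3 to 5 (5 without DMSO replicate 3 or LPS replicate 2 or 3), and 0 to 1 were lost in LPS+Skatole against LPS (1 without LPS+Skatole replicate 1 or 2). The median rank difference of LPS to DMSO was 0.962 to 3.25, the highest without DMSO replicate 2. Regions in all libraries that ranked higher numbered 4 to 7 in LPS than DMSO and 1 to 6 in LPS+Skatole than LPS, and those that ranked lower 0 to 2 and 1 to 2. Summit positions that did not overlap numbered 2 to 6 in both comparisons. The list counts of genes with more peaks were, for LPS against DMSO, 2 to 6 (other bZIP) and 3 to 5 (MAPK), and 2 to 4 for both lists in LPS+Skatole against LPS.

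With a replicate block, in which same-numbered libraries were compared as pairs, 2 members rather than 1 had more peaks in LPS+Skatole than LPS, and 3 in LPS than DMSO. Atf3 was the member added against LPS, and Junb was added for LPS+Skatole against DMSO. The ratios of member peaks were 1.32, 1.19 and 1.55, and no other count changed by over 1.5 times. The numbers did not pair the samples: deviations of same-numbered libraries correlated at −0.0153 to 0.018 (9 pairs), and those of different numbers at −0.018 to 0.0157. No called difference in peak number at a single member changed sign in any alternative that was run. Some ratios and median rank differences did turn direction, as given above. The threshold of the lists limits what depth can show, since an absent peak may lie just under it. How often it did so, in the shallower DMSO libraries or in the others, was not tested.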
